A study of Mus musculus with 6 samples.

Results

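The insulin-like growth factor (IGF) system was examined in fibroblast cultures from the adult mouse heart and tail. Its members here are 10 genes, the ligands Igf1 and Igf2, the receptors Igf1r and Igf2r, and the binding proteins Igfbp2 to Igfbp7. They were taken by symbol through the RefSeq accession of each probe, which gave 14 of the 55681 probes and 10 of the 20676 gene symbols on the array. Igf1 had 4 probes, Igfbp2 had 2 and every other member had 1. Each culture was hybridised to an Agilent array of its own, with Cy3 as the single dye. The groups were 3 cultures labelled heart fibroblast and 3 labelled tail fibroblast, all untreated and all from male C57/Bl6-J mice. The sample labels give an age of 8 weeks, and the protocol gives 8 to 10 weeks. Hearts were minced and skinned tails cut up, digested with 0.05% trypsin/EDTA or 0.5 mg/mL collagenase type II for 40 minutes, and the cells were plated for 5 days in medium with 10% serum. Each culture was pooled from 2 animals, the sources used here do not say if 1 animal gave both tissues, and no sorting step is given in the sources used here, so the cultures are plated cells and not a purified cell type. In such bulk RNA, fewer cells of a type and less RNA per cell cannot be told apart.

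IGF1 and IGF2 are secreted growth factors that act through IGF1R, a receptor tyrosine kinase that signals through the insulin receptor substrates to PI3K and Akt. IGF2R, also the cation-independent mannose 6-phosphate receptor, binds IGF2 and carries it to lysosomes without signalling as a kinase. The binding proteins hold the ligands in the extracellular space, and proteases such as PAPP-A release them. Fibroblasts and macrophages are known local sources of IGF1, a factor tied to growth and repair of heart muscle.

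Levels are given as log2 processed signal minus the 75th percentile of the same array, so 0 is the 75th percentile, and each probe is compared only with itself across arrays. Array labelled heart 2 stood apart from the others, with 99.3% of spots well above background and a median signal of 949, against 47.3% to 55.2% and 24.3 to 37.8 on the other 5 arrays. It correlated at 0.742 to 0.764 with them across probes, where the other pairs lay at 0.958 to 0.989. Array labelled tail 1 went against its label. It carried Tcf21, a factor of cardiac fibroblasts, and lacked a measurable signal of Hoxb13, the homeobox gene of the tail, as heart 1 and heart 3 did, and tail 2 and tail 3 showed the opposite. Each tested member is therefore given by label on 6 arrays and again on 4 arrays. The 4 arrays are heart 1 and 3 against tail 2 and 3 (n = 2 in each group, no array relabelled). Other genes and markers are given mainly on 4 arrays. Tail 1 was left out for its expression values, so p-values on 4 arrays are too small by an unknown amount. All 10 fibroblast markers checked, among them Col1a1, Col1a2, Pdgfra and Ddr2, were well above background on all 6 arrays. On 4 arrays 5 of them were higher and 1 lower in heart by limma, against 7.74% and 6.53% of all features. By label 0 of the 10 passed.

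On 4 arrays, 5 of the 9 members that could be tested differed between heart and tail. Igf1 and Igf2r were higher in heart, and the binding proteins Igfbp2, Igfbp4 and Igfbp6 were higher in tail. By limma with Benjamini-Hochberg adjustment over all 20567 features, 14.3% of features passed in either direction, 7.74% higher in heart and 6.53% lower. By label, 0 of the 9 members passed, as did 0% of 20197 features, with 1 member and 464 features at an unadjusted p under 0.05. The median difference of the tested members on 4 arrays was -0.06, as it was over all features (-0.06). Igf2 was not tested, since neither group had a usable signal on each of its arrays. The array labelled tail 1 lay nearer to the mean of heart 1 and 3 than to that of tail 2 and 3 at all 5 called members, and at 2894 of the 2933 features called. For the array labelled heart 2, the closer mean was that of heart 1 and 3 for Igfbp2, Igfbp4 and Igfbp6. It was that of tail 2 and 3 for Igf1 and Igf2r. Of the 2933 features called, 1220 were closer to the heart mean on this array and 1607 to the tail mean. A further 106 were not measured on it. A split in both directions was thus seen over all called features and is not particular to these members.

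**Figure D1:**
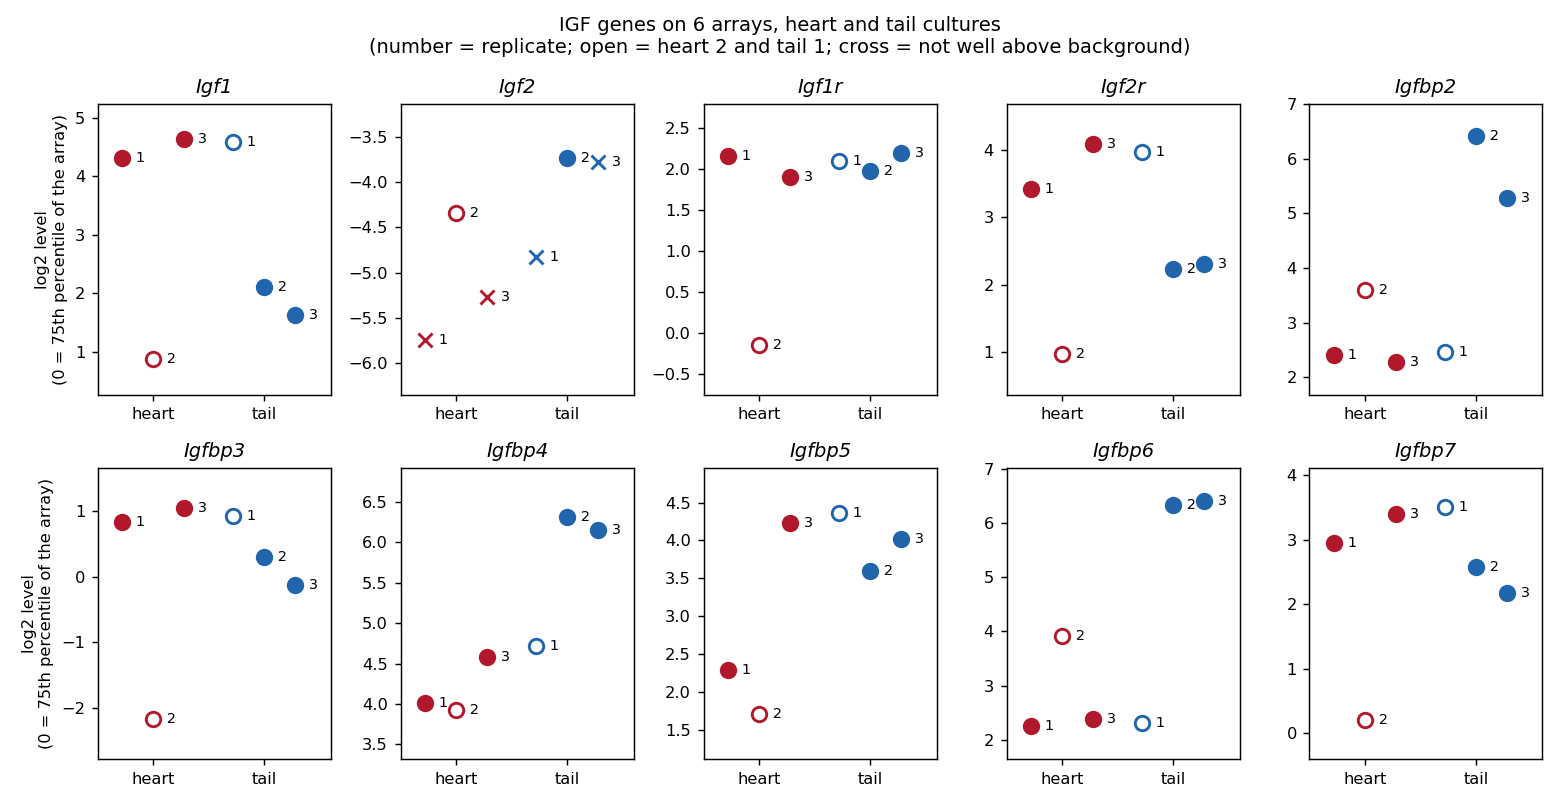
Log2 level of the 10 IGF genes on each array, 1 panel per gene with its own axis, for the probe with the highest mean. Numbers are replicates, open points mark heart 2 and tail 1, and crosses mark a signal not well above background. Tail 1 sits beside heart 1 and heart 3 for Igf1, Igf2r, Igfbp2, Igfbp4 and Igfbp6.

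Igf1, the ligand that growth hormone induces in many tissues, had levels of 4.31, 0.87 and 4.64 on heart 1 to 3 and of 4.59, 2.10 and 1.63 on tail 1 to 3. Heart 1, heart 3 and tail 1 were high, tail 2 and 3 were lower and heart 2 was lowest, so the groups overlapped by label. On 4 arrays Igf1 was 6.12-fold higher in heart (log2 difference 2.61, SE 0.24, limma adjusted p = 0.00493). The difference was 2.22 within the first row of the slide (heart 1 minus tail 2) and 3.01 within the second (heart 3 minus tail 3). By label it was 0.50 (SE 1.14, limma adjusted p = 0.828). Leaving out heart 2 alone gave 1.71 and leaving out tail 1 alone gave 1.41, and neither passed (limma adjusted p = 0.695 and 0.803).

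At all 4 Igf1 probes, which carry the same RefSeq accession, heart 1, heart 3 and tail 1 lay above tail 2 and 3. Heart 2 was lowest at 3 of the 4 and lay above tail 2 and 3 at the dimmest. Their differences on 4 arrays were 2.61, 2.54, 2.55 and 2.09, and the probe with 2.09 was not well above background on tail 3. The authors' deposited table lists 2 of these probes. Its log2 fold change of heart over tail is 2.54 for the probe at 2.61 here and 2.55 for the probe at 2.54 here. That table holds 433 probes, 3 of them from this family, and the third is the Igfbp6 probe.

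**Figure D2:**
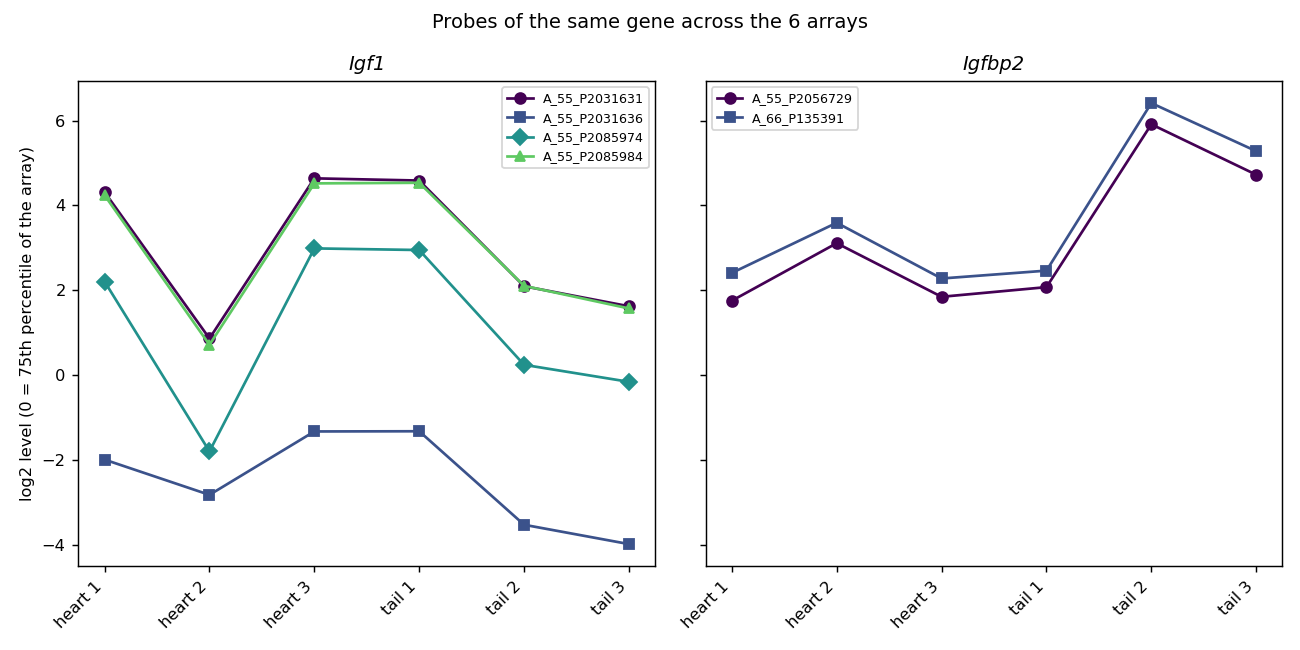
Log2 level on the 6 arrays of the 4 probes of Igf1 (left) and the 2 probes of Igfbp2 (right), joined by lines only to mark the probe. Heart 1, heart 3 and tail 1 lie together at every probe, above tail 2 and 3 for Igf1 and below them for Igfbp2.

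Markers of macrophages and leukocytes also differed in the direction of Igf1. Of 9 on the array all were tested and 6 rose in heart on 4 arrays, among them Ptprc, the pan-leukocyte CD45, and Lyz2, a lysozyme of myeloid cells (log2 difference 1.69). Their summed level, in multiples of the 75th percentile signal, was 46.7 on heart 1, 85.3 on heart 3, 37.8 on tail 2, 24.4 on tail 3, 66.9 on tail 1 and 15.1 on heart 2. All 9 were well above background on every array except Ptprc on tail 3, so Ptprc entered the test through its heart signal alone. Csf1r, the macrophage growth factor receptor, differed by 0.19 (limma adjusted p = 0.788). Over all features 7.74% were higher in heart on 4 arrays. By label 0 of these 9 markers passed. Of 10 endothelial markers 8 rose in heart, with a summed level of 15.7 on heart 1, 21.6 on heart 3, 22.2 on tail 2 and 16.6 on tail 3. The summed levels overlapped. Pecam1 and Kdr did not pass, at 0.22 and -0.43 (limma adjusted p = 0.433 and 0.333). By label 0 of the 10 passed. Tie1, Cldn5, Robo4 and Emcn were not well above background on tail 2 and 3, so they entered the test through heart alone and the filter favoured a rise. The part of these cells in the Igf1 and Igf2r differences was not tested.

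Igf2, the ligand of fetal growth that is imprinted and mostly silent in adult mouse tissue, had levels of -5.74, -4.34 and -5.27 on heart 1 to 3 and of -4.82, -3.73 and -3.78 on tail 1 to 3. Only heart 2 and tail 2 were well above background. No fold is given for it. The 3 genes of the Igf2 mRNA-binding proteins (Igf2bp1, Igf2bp2 and Igf2bp3), which bind Igf2 and other transcripts, had log2 differences of -2.27, -0.54 and -1.30 on 4 arrays, none past the threshold (limma adjusted p = 0.0783, 0.0858 and 0.0573). Igf2bp1 was not well above background on heart 3, 1 of the 2 heart arrays compared.

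Igf1r, the signalling receptor, had levels of 2.16, -0.15 and 1.90 on heart 1 to 3 and of 2.10, 1.97 and 2.19 on tail 1 to 3. Every array but heart 2 lay within a narrow band, and the groups overlapped. The difference on 4 arrays was -0.06, with a 95% interval from -0.53 to 0.42 (limma adjusted p = 0.863). By label it was -0.79 (SE 0.63, limma adjusted p = 0.726).

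Igf2r, the clearance receptor, had levels of 3.42, 0.97 and 4.08 on heart 1 to 3 and of 3.96, 2.23 and 2.31 on tail 1 to 3. Its probe has 10 spots on the array, averaged after outlier spots were left out. Heart 1, heart 3 and tail 1 were high, and heart 2 was lowest. On 4 arrays it was 2.80-fold higher in heart (log2 difference 1.48, SE 0.26, limma adjusted p = 0.0293), and 1.20 and 1.77 within the first and second slide rows. The call was lost without tail 2 (limma adjusted p = 0.148) or tail 3 (0.120). By label the difference was -0.01 (SE 0.86, limma adjusted p = 0.997). M6pr, the smaller mannose 6-phosphate receptor, differed by -0.12 on 4 arrays (limma adjusted p = 0.659). Of 8 genes of mannose 6-phosphate traffic, including the GGA adaptors and the lysosomal proteases Ctsd and Ctsb, 0 passed limma's threshold. Over all features 14.3% passed. In this list 2 genes had an unadjusted limma p under 0.05. Ctsd and Ctsb differed by 0.79 and 0.65 (limma adjusted p = 0.172 and 0.106).

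The start regions of the 5 called genes are shown because these members passed on 4 arrays, Igf1 and Igf2r in one direction and Igfbp2, Igfbp4 and Igfbp6 in the other. Each is the stretch of 250 bases before the RefSeq start on GRCm38.p6, read 5′ to 3′ on the gene's strand, and capitals mark the TATA box motif TATAAA, the CAAT box motif CCAAT, the GC box motif GGGCGG and the E-box motif CACGTG on either strand. The windows lie at chr10:87860861-87861110, plus strand (Igf1), chr17:12769707-12769956, minus strand (Igf2r), chr1:72824230-72824479, plus strand (Igfbp2, the first of 2 RefSeq starts), chr11:99040994-99041243, plus strand (Igfbp4) and chr15:102143936-102144185, plus strand (Igfbp6). The array itself was designed on mm9, and its probes were not placed on this build.
Igf1: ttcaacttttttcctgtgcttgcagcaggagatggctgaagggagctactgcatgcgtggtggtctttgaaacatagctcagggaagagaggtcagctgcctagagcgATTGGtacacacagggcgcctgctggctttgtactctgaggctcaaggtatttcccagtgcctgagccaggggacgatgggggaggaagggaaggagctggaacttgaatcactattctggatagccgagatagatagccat
Igf2r: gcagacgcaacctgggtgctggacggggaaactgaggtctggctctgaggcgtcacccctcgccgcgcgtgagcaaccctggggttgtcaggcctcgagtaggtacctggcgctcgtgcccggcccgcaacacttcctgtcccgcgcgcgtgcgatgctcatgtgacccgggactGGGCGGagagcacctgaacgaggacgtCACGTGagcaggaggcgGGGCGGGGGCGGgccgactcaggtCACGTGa
Igfbp2: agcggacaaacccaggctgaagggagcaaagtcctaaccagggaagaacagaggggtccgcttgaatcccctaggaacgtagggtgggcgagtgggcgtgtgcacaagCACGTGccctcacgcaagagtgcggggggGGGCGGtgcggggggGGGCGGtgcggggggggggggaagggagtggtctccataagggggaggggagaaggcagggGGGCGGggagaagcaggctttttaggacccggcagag
Igfbp4: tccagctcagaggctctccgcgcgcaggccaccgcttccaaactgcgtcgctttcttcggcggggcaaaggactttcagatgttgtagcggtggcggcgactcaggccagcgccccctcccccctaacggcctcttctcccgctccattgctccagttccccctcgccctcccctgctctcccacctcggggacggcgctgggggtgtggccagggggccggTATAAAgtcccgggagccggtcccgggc
Igfbp6: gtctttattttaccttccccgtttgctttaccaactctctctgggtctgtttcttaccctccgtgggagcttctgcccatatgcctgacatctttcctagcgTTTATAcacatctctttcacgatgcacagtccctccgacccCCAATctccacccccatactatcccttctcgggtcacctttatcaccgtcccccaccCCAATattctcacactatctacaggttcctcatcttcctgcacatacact

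The GC box GGGCGG occurred 3 times in the Igf2r window and 3 times in the Igfbp2 window, with a pair of the Igf2r matches side by side, and in 32.7% of the 32851 windows of the reference table. CACGTG occurred 2 times at Igf2r and 1 time at Igfbp2, against 6.02% of windows with a match. TATAAA was found at Igfbp4 close to the start and, on the other strand, at Igfbp6 (12.4% of windows), and CCAAT at Igf1 and Igfbp6 (33.9%). The windows of Igf2r, Igfbp2 and Igfbp4 held 69.2%, 67.2% and 69.2% G or C, and those of Igf1 and Igfbp6 held 52.8% and 49.6%, against a median of 52.4% over all windows. These matches are letters in these windows and show no site in use.

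Among the binding proteins, Igfbp6, which prefers IGF2 as its ligand, had levels of 2.25, 3.92 and 2.39 on heart 1 to 3 and of 2.32, 6.33 and 6.41 on tail 1 to 3. Tail 2 and 3 were high, heart 2 was intermediate, and tail 1 lay between heart 1 and heart 3. On 4 arrays Igfbp6 was 16.5-fold higher in tail (log2 difference -4.05, SE 0.15, limma adjusted p = 0.000898), with -4.07 and -4.02 within the slide rows. The authors' deposited table gives it a log2 fold change of -3.70. By label the difference was -2.17 (SE 1.09, limma adjusted p = 0.726), and it was -2.70 without heart 2 and -3.51 without tail 1.

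Igfbp2, a binding protein abundant in fetal and growing tissue, had levels of 2.41, 3.59 and 2.28 on heart 1 to 3 and of 2.47, 6.41 and 5.28 on tail 1 to 3. Tail 2 and 3 were high and differed from each other by 1.13, and the other 4 arrays were lower. On 4 arrays it was 11.3-fold higher in tail (log2 difference -3.50, SE 0.40, limma adjusted p = 0.00916). The other Igfbp2 probe gave -3.51, and the slide rows gave -4.00 and -3.00. The call was lost without heart 3 (limma adjusted p = 0.0574). By label the difference was -1.96 (SE 0.96, limma adjusted p = 0.726).

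Igfbp4, the carrier that PAPP-A cleaves, had levels of 4.01, 3.92 and 4.58 on heart 1 to 3 and of 4.72, 6.32 and 6.15 on tail 1 to 3. Tail 2 and 3 were high, and tail 1 lay just above heart 3. On 4 arrays it was 3.83-fold higher in tail (log2 difference -1.94, SE 0.24, limma adjusted p = 0.0115), with -2.31 and -1.57 within the slide rows. The call was lost without tail 2 (limma adjusted p = 0.0671). By label the difference was -1.56 (SE 0.53, unadjusted p = 0.0192, limma adjusted p = 0.726), so Igfbp4 was the member with an unadjusted p under 0.05.

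Most markers of contractile cells ran in the direction of Igfbp2, Igfbp4 and Igfbp6. Of 8 smooth muscle and pericyte markers 5 passed as lower in heart on 4 arrays and 0 as higher. Over all features 6.53% passed as lower. The 5 include Acta2, smooth muscle actin (log2 difference -1.23), and Cnn1, calponin (-5.03). Rgs5 and Des lay the other way, at 0.60 and 0.17, and did not pass (limma adjusted p = 0.0653 and 0.497). The summed level of the 8 was 536 on heart 1, 501 on heart 3, 1292 on tail 2, 1060 on tail 3, 417 on tail 1 and 274 on heart 2. All 8 were well above background on every array except Myh11 on heart 3, so Myh11 entered the test through tail alone. Of 6 skeletal muscle markers 3 were tested and all 3 fell in heart, with summed levels of 13.7 on heart 1, 10.9 on heart 3, 39.3 on tail 2, 34.4 on tail 3, 9.6 on tail 1 and 10.8 on heart 2. Myh3 and Myog were not well above background on heart 1 and 3, so they entered the test through tail alone and the filter favoured a fall. Ckm and Pax7 were not well above background on 5 arrays, heart 2 being the exception. In the other lists 2 of 5 tested mesothelial markers were higher and 1 lower in heart, 1 of 6 cardiomyocyte markers was higher and 2 lower, and 2 of 5 adipocyte markers were lower. Several of these calls entered the test through 1 group alone, so the filter favoured their direction. Msln and Wt1, called higher, were not well above background on tail 2 and 3. Of those called lower, Actc1, Mb and Plin1 were not well above background on heart 1 and 3, nor was Krt19 on heart 3. The part of such cells in the binding protein differences was not tested. By label 0 markers of these lists passed.

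The remaining binding proteins did not pass on either set of arrays. Igfbp3, the main serum carrier, had levels of 0.82, -2.17 and 1.05 on heart 1 to 3 and of 0.92, 0.30 and -0.13 on tail 1 to 3. The difference on 4 arrays was 0.85 (95% interval 0.28 to 1.42, limma adjusted p = 0.0746). Igfbp7, a low-affinity relative found in vessel walls, had levels of 2.95, 0.20 and 3.40 in heart and of 3.51, 2.57 and 2.17 in tail. Its difference on 4 arrays was 0.80 (95% interval 0.15 to 1.45, limma adjusted p = 0.115). For both, heart 1, heart 3 and tail 1 were above tail 2 and 3, while heart 2 was lowest and turned the sign by label (-0.47 and -0.57).

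Igfbp5, a matrix-bound carrier, had levels of 2.28, 1.71 and 4.23 on heart 1 to 3 and of 4.36, 3.60 and 4.02 on tail 1 to 3. Heart 1 and heart 3 differed by 1.95, and the groups overlapped. The difference on 4 arrays was -0.55, with a 95% interval from -2.34 to 1.24 (limma adjusted p = 0.632), and leaving out heart 1 turned it to 0.42 (limma adjusted p = 0.306). By label it was -1.25 (SE 0.67, limma adjusted p = 0.726). Igfbp5 lies next to Igfbp2 in the RefSeq gene table, and Igfbp3 next to Igfbp1. Igfbp2 passed where its neighbour Igfbp5 did not, and Igfbp1 was well above background on heart 2 alone.

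**Figure D3:**
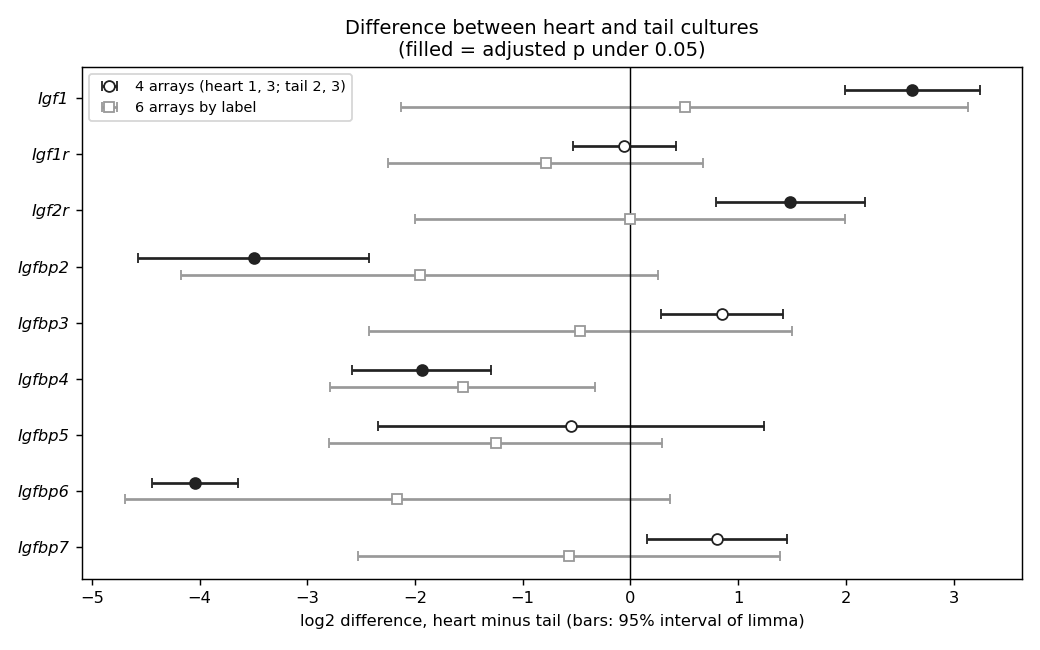
Log2 difference, heart minus tail, of the 9 tested members with the 95% interval from limma, on 4 arrays (circles) and on 6 arrays by label (squares). Filled symbols have an adjusted p under 0.05. On 4 arrays Igf1 (2.61) and Igf2r (1.48) lie above 0 and Igfbp2 (-3.50), Igfbp4 (-1.94) and Igfbp6 (-4.05) below, and the intervals by label are wider except for Igfbp5.

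Around these members, 64 other genes of the IGF system were listed, 57 could be tested on 4 arrays, and 8 rose and 3 fell in heart by limma. That is 11 of 57, where 14.3% of all features passed. Their median difference was -0.09, against -0.06 over all features. Stc1, among those that rose, and Pappa2, among those that fell, entered the test through 1 group alone, so the filter favoured their direction. By label 0 of 57 passed, and 0 had an unadjusted p under 0.05. For the 11, the difference by label was 0.10 for Pappa, -0.31 for Htra1, 0.20 for Ghr and -0.01 for Socs3. It was 0.11 for Grb14, 0.08 for Gab1 and -0.08 for Pik3r1. Pappa2, Stc1, Grb10 and Irs1 kept larger differences by label, at -3.12, 1.12, -1.03 and -1.09.

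Among proteases of the binding proteins, their inhibitors and further carriers, 3 of 6 tested genes rose in heart and 1 fell. Over all features 7.74% were higher and 6.53% lower. Stc1, which rose, entered the test through its heart signal alone, and Pappa2, which fell, through its tail signal alone. Pappa, which encodes the IGFBP4 protease PAPP-A, had levels of 1.79 and 1.94 on heart 1 and 3 and of 0.54 and 0.17 on tail 2 and 3 (log2 difference 1.50, SE 0.19, limma adjusted p = 0.0122). Pappa2, its relative that cleaves IGFBP3 and IGFBP5, went the other way, with -4.57 on heart 1, a signal not well above background on heart 3, and -0.04 and -0.30 on tail 2 and 3. Its fitted log2 difference, -4.58 (SE 0.20, limma adjusted p = 0.00114), thus has a measured level on 1 of the 2 heart arrays. On the array labelled tail 1 these genes were at 2.28 and -4.53, beside or beyond the heart arrays. The Pappa2 spot was left out on heart 2 as non-uniform. A second Pappa2 probe was well above background on heart 2 alone and gives no difference.

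Stc1, encoding a stanniocalcin that inhibits PAPP-A, was not well above background on tail 2 and 3 and entered the test through heart alone. Its fitted log2 difference of 1.99 (limma adjusted p = 0.0396) rests on those tail signals. As a lower bound, Stc1 was at least 3.58-fold higher in heart. This lower bound puts Stc1 on each tail array at the dimmest signal that was well above background there, or at its measured signal where that was greater. Stc2, the other stanniocalcin, differed by 0.08 (limma adjusted p = 0.828). Htra1, a serine protease that can cleave binding proteins, had levels of 5.66 and 6.26 on heart 1 and 3 and of 4.40 and 4.28 on tail 2 and 3 (log2 difference 1.62, SE 0.25, limma adjusted p = 0.0197). Adam12, a metalloprotease with binding proteins among its substrates, differed by 0.36 (limma adjusted p = 0.237). Igfbp1, Igfals, the acid-labile subunit of the serum complex, and Igfbpl1 were not tested for lack of signal.

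The growth hormone axis had 2 of 8 genes higher in heart and 0 lower, against 7.74% and 6.53% of all features. Ghr, the growth hormone receptor, was at 3.49 and 3.54 on heart 1 and 3 and at 1.25 and 1.39 on tail 2 and 3 (log2 difference 2.20, SE 0.15, limma adjusted p = 0.00236). It was at 3.56 on tail 1 and -0.23 on heart 2, so that heart 1, heart 3 and tail 1 were high and heart 2 was lowest. Socs3, a feedback inhibitor of cytokine receptors, differed by 1.92 on 4 arrays (limma adjusted p = 0.00312) and by -0.01 by label (limma adjusted p = 0.997). The authors' deposited table lists Socs3 at 2.08, with its normalization not given in the sources used here. Jak2 and Stat5b, which carry the signal of the growth hormone receptor, differed by 0.06 and -0.08 (limma adjusted p = 0.817 and 0.769). Stat5a, the close relative of Stat5b, differed by -0.76 (limma adjusted p = 0.0516).

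Receptor adaptors split, with 2 of 10 higher and 2 lower in heart, against 7.74% and 6.53% of all features. Grb14 and Gab1, an inhibitory adaptor of the insulin receptor and a docking protein, differed by 2.23 and 1.40 (limma adjusted p = 0.00228 and 0.0150). Grb10, the imprinted inhibitory adaptor, and Irs1, the main docking protein of IGF1R, differed by -1.60 and -1.20 (limma adjusted p = 0.00653 and 0.0263). Of 17 tested genes of the PI3K, Akt and mTOR branch 1 rose and 0 fell by limma's threshold. Over all features 14.3% passed in either direction. In this branch 3 genes had an unadjusted limma p under 0.05. Pik3r1, a regulatory subunit of PI3K, differed by 1.12 (limma adjusted p = 0.0131). Akt1, Akt2 and Mtor were within 0.25 of 0, at -0.11, -0.10 and -0.25, and none passed. Of the insulin ligands and receptors 3 of 4 were tested and 0 passed limma's threshold (0 at an unadjusted p under 0.05), with Insr at 0.27 (limma adjusted p = 0.449). In the list of Igf2 mRNA-binding proteins and imprinted neighbours 0 of 6 tested genes passed limma's threshold, with 3 at an unadjusted p under 0.05. Airn in this list was read from its brighter probe, at 0.05. Its dimmer probe gave 2.60 on 4 arrays and was not well above background on tail 2 and 3.

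**Figure D4:**
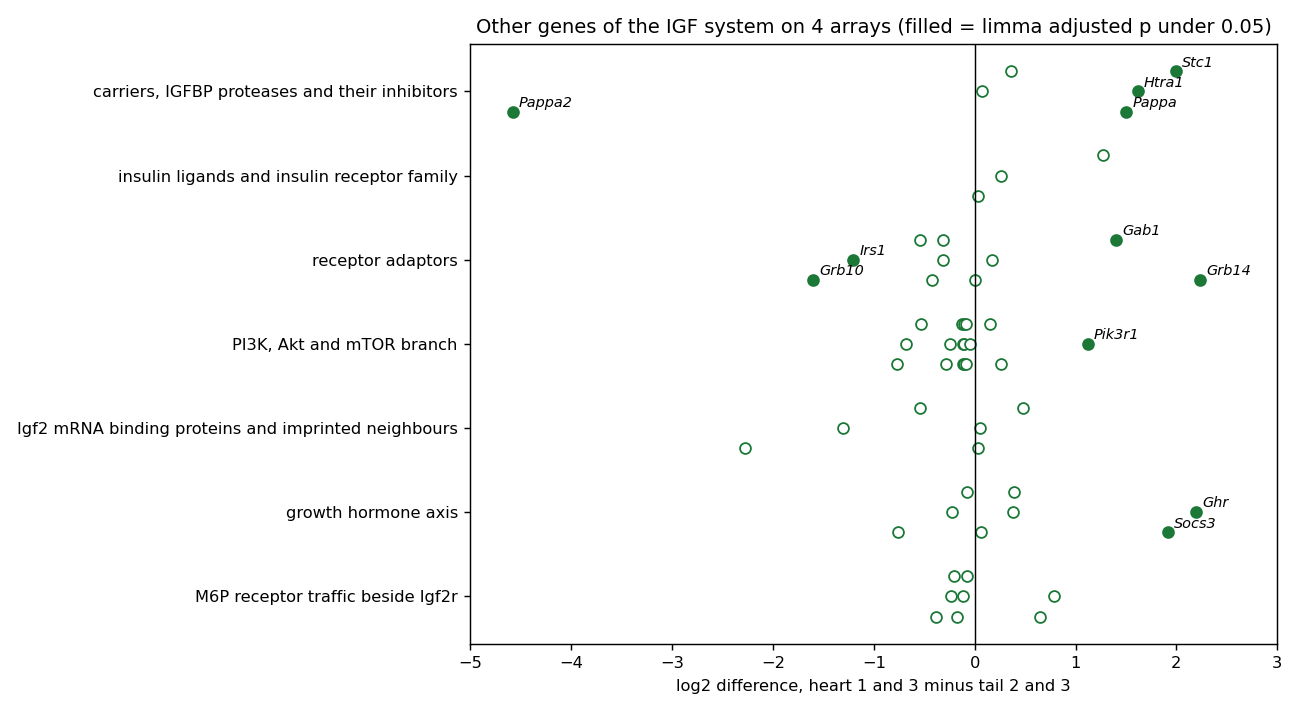
Log2 difference between heart 1 and 3 and tail 2 and 3 for the 57 tested other genes of the IGF system by list (Ins2 stands in 2 lists), filled where limma's adjusted p was under 0.05. The filled genes are named, 8 to the right of 0 and 3 to the left. Fitted values are drawn also for Pappa2 and Igf2bp1, not well above background on heart 3, and for Stc1 and Insrr, not well above background on tail 2 and 3.

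The genes most like each tested member were taken as the pair with the highest Pearson correlation over the 6 arrays among 11571 named genes, as a description over 6 points that share their cultures and their slide. For Igf1 they were Pmaip1 and Fndc1 (r of 0.999 and 0.999), for Igf2r Por and Rhou (0.998 and 0.998), for Igfbp2 Unc93a2 and Cmtm8 (0.989 and 0.988), for Igfbp4 Scube2 and Tenm4 (0.998 and 0.996) and for Igfbp6 Btbd11 and Chst2 (0.999 and 0.999). For Igf1r they were Pdcd6 and Slc30a5 (0.9997 and 0.9996), which on the 5 arrays without heart 2 had 0.981 and 0.984. For Igfbp3 they were Cyba and Zdhhc21 (0.998 and 0.998), for Igfbp5 Cul9 and Kifc2 (0.985 and 0.985) and for Igfbp7 Cyp2d11 and Llgl2 (0.998 and 0.998).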

How the data were processed

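The deposited scans give an intensity per spot, the processed signal of Agilent Feature Extraction 11.0.1.1, per the file headers. Its settings for background and trend are not given in the sources used here, and the arrays were not scaled to each other. Other columns flag, as 0 or 1, spots above background, saturated or outlying, per the file headers. For 433 probes the authors' deposited table lists the log2 difference of heart and tail and its linear ratio. Its normalization and selection are not given in the sources used here.

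Log2 processed signals were centred on the 75th percentile of their array (59305 spots, controls left out). Outlier spots were left out and spots of a probe averaged. A probe was tested if 1 group or both had signal well above background throughout, and a gene was read from its brightest such probe. RefSeq accessions, looked up in a GRCm38.p6 table, named 27235 of 55681 probes, and 27 more were named from the authors' list. Two-sided tests came from limma 3.58.1 in R 4.3.3 (functions lmFit, eBayes) after a check on simulated data, and genes were called at a p under 0.05 after Benjamini-Hochberg adjustment. Python 3.11.15 read the files. The 3 cultures per group are biological replicates per the series design text, pooled from 2 animals each, and all arrays lay on 1 slide. The small number of arrays limits the precision.

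The members, gene lists, named-gene rule (members, called list genes up to 4 per list, all tested proteases, carriers and inhibitors, and the 2 most alike genes) and the 4-array comparison were chosen with earlier results of these data known. The Igf2bp genes, Airn, M6pr, Ctsd, Ctsb, Insr, Jak2, Stat5a, Stat5b, Akt1, Akt2, Mtor and the marker examples were named outside that rule, after their values were seen. From the list of the PI3K, Akt and mTOR branch 2 genes are not reported here and stand in none of its counts. Alternatives were other normalizations, normexp (offset 50, on median spot intensities, since the files hold no mean), filters, probe rules, blocks, array weights and leaving out each array.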

Additional observations from a re-analysis of the deposited data

How the results depend on the processing

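On 4 arrays the 5 called members kept their direction under every alternative run. Without a filter 692 features and 1 member (Igfbp6) passed, against 2933 and 5, with 37066 features tested in place of 20567. Leaving out 1 array gave 1483 to 4056 features and 3 to 5 members, with 1809 without tail 2 and 1483 without tail 3. Each such fit leaves 1 array in a group, so its spread within groups comes from the other group alone. Over these fits the difference ranged from 2.38 to 2.85 for Igf1 and from -4.115 to -3.978 for Igfbp6. The sign turned for Igfbp5 without heart 1 (range over left-out arrays -1.53 to 0.42) and for Igf1r (-0.1846 to 0.0730). The slide row as a block gave 3140 features and the same count of members, 5.

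By label 0 features passed, but 239 without heart 1 (range over left-out arrays 0 to 239, with 0 members in each). With array weights, which limma estimates from the same data and whose iteration stopped early, 5613 features and 7 members passed. The sign by label turned for Igf1 under median scaling (-0.46) and on leaving out 1 array (-0.18 to 1.71). It turned for Igf2r under quantile normalization (0.30), normexp (0.0395), array weights (1.64) and left-out arrays (-0.64 to 0.92), and with array weights for Igfbp3 (1.00), Igfbp5 (0.0110) and Igfbp7 (1.02). Left-out arrays also turned Igfbp3 (-1.04 to 0.57) and Igfbp7 (-1.18 to 0.42). Median scaling moved the median difference of all features by label from -0.35 to -1.31. The cause of these changes was not tested.

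A replicate block by label, from the numbers in the titles, gave 120 features and 0 members; on 4 arrays the groups share 1 number and no such fit was run. Same-numbered arrays deviated from their group means with correlations of 0.19, 0.26 and -0.33, and not every array correlated best with its own number, so the numbers were not taken as pairs. Heart 2 and tail 1 enter these correlations. Signal near background limits what can be said of Igf2, Stc1, Pappa2 and Igf2bp1.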
